A study of Mus musculus with 2 samples.

Results

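The genes described here are the cytosolic ribosomal protein genes of mouse pancreatic cancer cells. They were chosen by gene symbol: 87 of the 33696 features matched the pattern for Rpl, Rps, Rpsa and Rplp genes, and the 83 that had at least 1000 unique molecular identifiers (UMIs, each standing for 1 captured RNA molecule) over all cells were kept. The 83 were 31 genes of the small ribosomal subunit, 43 of the large subunit, the 3 P stalk genes and 6 paralog-like copies or other genes with such a symbol. The 4 genes left out had 16 UMIs (Rps23rg1), 5 UMIs (Rpl3l) and 0 UMIs (Rpl10l and Rpl39l). A count of 0, read as at most 3 counts, allows up to 0.0745 CPM (UMIs of a gene as a part of the group's total, scaled up in the usual way) in A cells and 0.0568 CPM in B cells, groups that are defined in the next paragraph. The lowest genes inside the threshold were Rps27rt with 6681 UMIs, Rps19bp1 with 12702 and Rpl7l1 with 19064. Since the members were selected on their UMI totals, their abundance is a description.

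The data are 1 single-cell library (droplets, 3′ v4 chemistry) of the cell line KPCY 6419c5, a pancreatic ductal adenocarcinoma line of the mouse. The cells carried BASELINE, a lineage recorder, and had been transfected with an adenine base editor built on Cas12a. Single cells were then sorted and grown into colonies, and 2 such clones, 76 and 84, were mixed in equal numbers after 19 days of editing. Each clone is 1 clone of 1 line, so a difference between them may be particular to that clone, and the pool of clones 1, 32, 33, 52 and 76 was not analysed here. No file used here ties a cell to a clone. Cells were therefore grouped by marker UMIs. A cells had at least 2 UMIs of Pde10a, Plcb1, Galnt18, Arhgap15 and Ceacam1 together, and at least 3 times as many as of the B markers S100a7a, Rgs20, Hs6st2, Ccbe1, Ctse and Mal. B cells were defined the other way round. Of 21361 cells, 7816 were A cells, 8936 were B cells and 4609 were neither. With 1 library there is no replicate: no difference below was tested, and intervals are 95% exact intervals for counting error only (Poisson for sums, Clopper-Pearson for shares and for ratios of 2 sums).

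The library held 116505698 UMIs in 22178 barcodes. A cells had a median of 4699.5 UMIs and 3.19% mitochondrial UMIs, against 5440.5 UMIs and 1.89% in B cells. Epithelial markers were present in both groups, 8 of 8 in A cells (2738 CPM summed) and 7 of 8 in B cells (7578 CPM). Markers of other cell types were low: immune genes summed to 3.48 and 1.12 CPM, fibroblast genes to 2.11 and 0.853, endothelial genes to 38.6 and 8.79 and acinar genes to 13.7 and 4.38 in A and B cells. Endocrine genes summed to 0.0497 and 0.0758 CPM and erythroid genes to 0.497 and 3.30. Col1a2, Dcn, Lum, Kdr, Cpa1, Amy2a5, Ctrb1, Ins1, Gcg, Hbb-bs and Hbb-bt were at 0. The part of these differences in the results below was not tested.

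Ribosomal proteins coat the ribosomal RNA of the small subunit, which decodes the message, and of the large subunit, which joins the amino acids. Their genes are scattered over the genome, yet most of the proteins are needed in equal numbers, and excess copies are degraded. Their mRNAs begin with a C followed by an unbroken run of pyrimidines, the 5′ terminal oligopyrimidine (TOP) motif, through which mTOR and LARP1 control their translation, while MYC raises transcription of ribosome genes. The first transcribed bases are therefore the best known shared sequence of the family. A RefSeq entry (GRCm38.p6) matched 63 of the 83 members by symbol. The windows below run from 15 bases before to 15 bases from the listed start. Capitals mark the longest run of C and T that opens with C, wherever it lies in the window. The windows show the copy Rpl22l1 beside its partner Rpl22 and the gene with the lowest B-to-A ratio (Rpl35). Shown too are 4 of the 5 members on chromosome 5, which are described at the end.
Rpl22l1: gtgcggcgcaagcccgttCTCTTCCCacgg
Rpl22: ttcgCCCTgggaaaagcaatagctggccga
Rpl35: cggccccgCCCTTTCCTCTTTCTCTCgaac
Rpl9: acgcagggCCCTgacggattacaagaacgt
Rpl5: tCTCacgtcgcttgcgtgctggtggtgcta
Rplp0: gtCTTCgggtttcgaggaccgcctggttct
Rpl6: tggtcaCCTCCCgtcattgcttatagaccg

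These windows lie at chr3:28805493-28805522 (plus strand), chr4:152325711-152325740 (plus strand), chr2:39005117-39005146 (minus strand), chr5:65391417-65391446 (minus strand), chr5:107900513-107900542 (plus strand), chr5:115559452-115559481 (plus strand) and chr5:121204486-121204515 (plus strand). Rpl22 has 2 listed starts and the first is shown. The Rpl35 run is 18 bases long, the Rpl22l1 run 8 and the Rpl6 run 6, while Rpl22, Rpl9 and Rplp0 have 4 bases and Rpl5 has 3. Only the Rpl35 run spans the listed start, while the Rpl22l1 run lies after it and the other runs before it. No marked run opens at the listed start, so run lengths and counts are not those of TOP motifs. A run of at least 6 anywhere in the window was found in 33 of 63 members (52.4%), against 22.4% of 27025 windows of the same length. A run of at least 8 was found in 24 members (38.1%), against 9.09%. In the 300 bases from 250 before to 50 after the start, on both strands, CCGGAAG, the core of ETS-type sites, occurred in 24 members (38.1%) and in 9.12% of all promoters. AAGATGG, the core of YY1 sites, occurred in 9 members (14.3%) and in 6.48%. TATAAA occurred in 6 members (9.52%) and in 14.2%. A match is a match of letters only.

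Ribosomal protein transcripts made up 19.4% of UMIs in A cells (7800577 of 40272805, 19.36 to 19.38%) and 20.04% in B cells (10575523 of 52771426, 20.03 to 20.05%). The median A cell had 19.5%, with 90% of cells between 14.0 and 23.2%, and the median B cell 20.1%, between 16.2 and 23.5%. The distributions overlapped over nearly their whole width. By subunit, small subunit genes held 7.80% and 8.06% of UMIs, large subunit genes 10.5% and 10.7%, and P stalk genes 0.902% and 1.08%, in A and B cells.

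**Figure D1:**
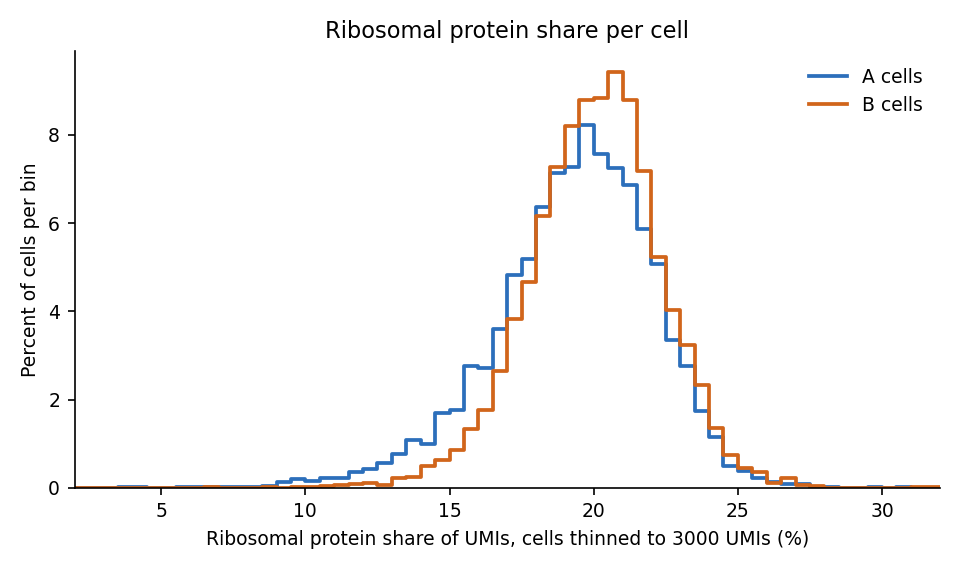
Share of ribosomal protein UMIs per cell, in percent (x axis, bins of 0.5), against the percent of A (blue) or B (orange) cells per bin, after each cell was thinned to 3000 UMIs. The 2 distributions overlap; A cells have the longer tail below 15%.

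The gap between the groups differed with depth and mitochondrial share. In the shallowest of 4 equal-sized UMI bands, set on A and B cells together, the share was 18.8% in A and 20.2% in B cells, and in the deepest 19.9% and 20.1%. Where mitochondrial UMIs were up to 1%, 34 A cells had 21.1% and 73 B cells 22.3%. Above 1 and up to 2%, the order was the other way round, with 20.7% in 189 A cells and 20.2% in 5413 B cells. Above 2 and up to 4%, 6546 A cells had 19.7% and 3416 B cells 19.8%. Above 4 and up to 8%, 1015 A cells had 16.8% and 31 B cells 15.3%. Across single cells thinned to 3000 UMIs, the share was negatively correlated with the mitochondrial share (r = -0.42 over 7406 A cells, -0.17 over 8827 B cells) and with that of Malat1, a nuclear noncoding RNA (r = -0.49 and -0.30). These shares are parts of the same total. Their part in the difference was not tested.

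Of single genes, 2 of the 83 members (2.41%) lay past 1.5-fold, both higher in B cells, and 1 of these, Rpl22l1, did so when only cells with at least 5000 UMIs, 2000 genes and at most 10% mitochondrial UMIs were used. Of the 8565 features with at least 1000 UMIs, 12.1% were past 1.5-fold toward B and 22% toward A, where no member was. The median log2 ratio of B over A was 0.09 over the members, with 49 above 0 and 34 below, and -0.15 over all 8565 features. Set against that median, the members' own median was 0.25, and 10 members lay past 1.5-fold toward B and 0 toward A, beside 16.2% and 15.5% of all features. The members' ratios spread over -0.57 to 1.10 with an SD of 0.31, while all features had an SD of 1.02. Of the 74 members with at least 100000 UMIs, 1 lay past 1.5-fold, and of the 90 other features as abundant, 17 were higher in B and 14 in A. The median log2 ratio was 0.07 over these 74 members and 0.18 over the 90 other features. A median above that of all features was therefore not particular to the members.

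These ratios differed between bands of mitochondrial share, which A and B cells fill unequally. In bands of up to 1%, above 1 to 2%, above 2 to 4% and above 4 to 8%, the members' median log2 ratio was 0.0883, 0.00189, 0.0361 and -0.11, so the median was near 0 in the bands with most cells and below it in the highest. The medians of all features in these bands were -0.16, -0.10, -0.16 and -0.02. Rps14 was within 1.5-fold in each of the 4 bands (0.43, 0.50, 0.53 and 0.35). Rpl35 was past 1.5-fold toward A in each (-0.76, -0.69, -0.62 and -0.85), and also in the middle pair of UMI bands (-0.64 and -0.61). Rpl22l1 had 0.69, 1.13, 1.04 and 0.38, the last within 1.5-fold. The lowest band held 34 A and 73 B cells, and the highest 1015 A and 31 B cells.

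**Figure D2:**
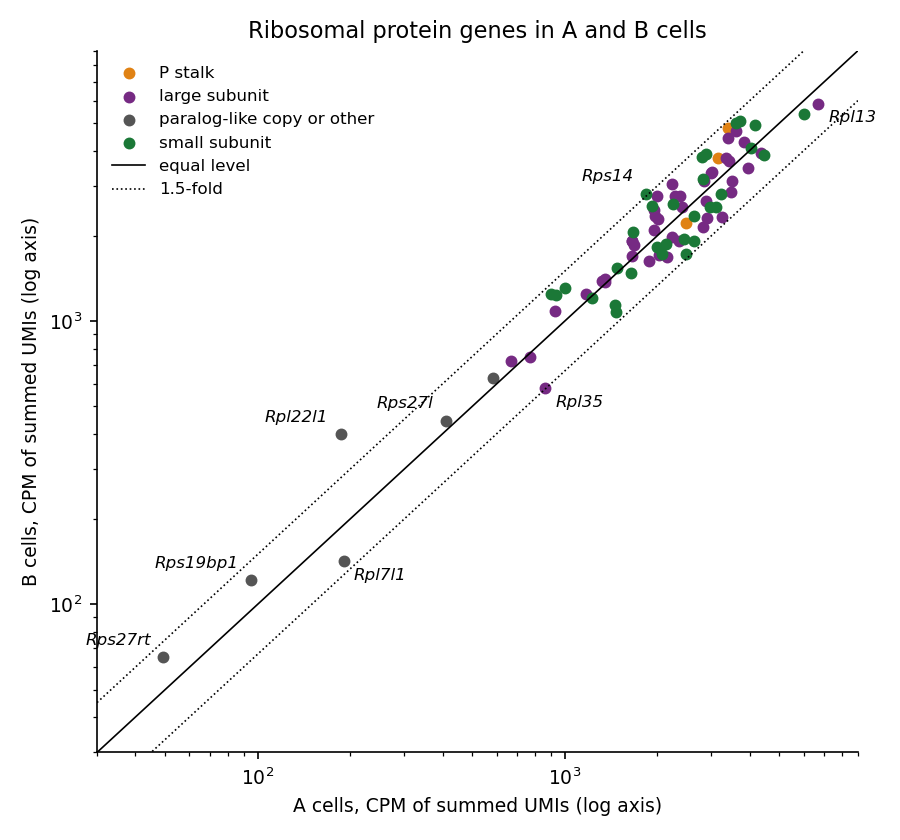
Level of each of the 83 genes in A cells (x axis) and B cells (y axis), in CPM of summed UMIs on log axes, coloured by subunit. Points hug the line of equal level over the whole range; Rpl22l1 and Rps14 lie above the upper dotted line of 1.5-fold, and Rpl35 lies just inside the lower one.

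In the small subunit, 15 of 31 genes were above 0 and 16 below (median log2 ratio -0.03). Rps2, at the mRNA entrance of the subunit, was the most abundant, with 6001 CPM in A and 5371 CPM in B cells. Rps12 had 3715 and 5070 CPM. Rps27a, made as a fusion with ubiquitin, had 3623 and 5006 CPM (log2 ratio 0.47). Rps14, a protein of the platform whose loss is known from 5q- syndrome, had 1840 CPM in A and 2809 CPM in B cells, a log2 ratio of 0.61 (0.60 to 0.62) and the highest of the subunit. At the other end stood Rps3, which also has a DNA repair activity, with 2473 CPM in A and 1725 CPM in B cells (-0.52, -0.53 to -0.51). Rps15a had 2627 and 1914 CPM (-0.46). The genes of this particle therefore had ratios on both sides of 0.

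In the large subunit, 27 of 43 genes were above 0 and 16 below (median 0.09), and none passed 1.5-fold. Rpl13 was the most abundant gene of the family, with 6665 CPM in A and 5852 CPM in B cells. Rpl17, at the exit of the peptide tunnel, had 1991 CPM in A and 2770 CPM in B cells (0.48). Rpl35, also near the tunnel exit, had 860 and 581 CPM (-0.57, -0.59 to -0.54), and Rpl18 had 3256 and 2329 CPM (-0.48).

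The P stalk is the flexible arm that recruits translation factors to the large subunit. Its base, Rplp0, had 3154 CPM in A and 3768 CPM in B cells (0.26). Rplp1 had 3392 and 4797 CPM (0.50), and Rplp2 had 2472 and 2220 CPM (-0.16). Rplp1 and Rplp2 pair with each other on the stalk, and their transcript ratio differed between the groups in this library: Rplp1 was above Rplp2 in both, by more in B cells.

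Among the copies, Rpl22l1 had the highest ratio. It is a paralog of Rpl22, an RNA-binding protein known to hold back its copy. Rpl22l1 had 186 CPM (182 to 191) in A cells and 399 CPM (394 to 405) in B cells, a log2 ratio of 1.10 (1.06 to 1.14) and the highest of the 83. Rpl22 itself had 1945 and 2466 CPM (0.34), so both were higher in B cells. The copy made up 8.75% of the pair's UMIs in A (8.56 to 8.94%) and 13.9% in B cells (13.8 to 14.1%). The ratio of Rpl22l1 was 1.23, 1.20, 1.08 and 0.93 in the 4 UMI bands from shallow to deep, and 0.38 to 1.13 in the mitochondrial bands given above.

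The other copies lay within 1.5-fold. Rps27l, a p53 target, had 410 and 444 CPM (0.11), while Rps27 had 938 and 1234 CPM (0.40). Rps27l was 30.4% of the pair's UMIs in A cells (30.02 to 30.8%) and 26.5% in B cells (26.2 to 26.7%). Rps27rt, a retrotransposed copy, had 49.2 and 65.1 CPM (0.40), 4.99% and 5.01% of its pair. Rpl36al had 584 and 631 CPM and Rpl36a 669 and 725 CPM, so the copy's share was 46.6% in A and 46.5% in B cells. Rpl7l1, a nucleolar copy, had 190 and 142 CPM (-0.43), while Rpl7 had 2018 and 2290 CPM (0.18). Rps3a1, named here for its symbol only, is 1 of the small subunit genes and was not paired as a copy. It had 4026 and 4070 CPM (0.02). The ratio was -0.0105 in cells with at least 5000 UMIs, 2000 genes and at most 10% mitochondrial UMIs. Rps19bp1, a SIRT1 regulator and no ribosome subunit, had 95.5 and 121 CPM (0.35). How reads shared between copies were counted is not given in the sources used here, so the split within a pair of near-identical copies is uncertain. Of 5 features named as pseudogenes of the family, 2 had at least 1000 UMIs, and the 5 summed to 62.9 CPM in A and 57.2 CPM in B cells.

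The ratios differed by chromosome, a pattern known from earlier results of these data and so no independent evidence. All 14 members on chromosome 7 were below 0 (median -0.31), among them Rps3, Rpl18, Rps15a and Rplp2. The 542 other genes of that chromosome had a median of -0.60. Chromosome 2, with Rpl35, held 4 members, all below 0 (-0.26, other genes -0.55), and chromosome 17 held 7 with 6 below 0 (-0.20, other genes -0.43). Chromosome 18, with Rps14 and Rpl17, had 0.54 (other genes 0.44). On chromosome 9, with Rplp1, all 8 were above 0 (0.33, other genes -0.11), and on chromosome 11, with Rps27a, all 7 (0.22, other genes -0.07). The 4 on chromosome 10 had 0.41, but its other genes -0.04.

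Over the 17 chromosomes with 2 or more members, the median of the members and that of the other genes had r = 0.91. The points share the 2 cell sums. The SD of members' ratios was 0.32 over these 81 genes and 0.19 within chromosomes. For other features it was 1.02 and 0.99, and for the 89 of these with at least 100000 UMIs 0.74 and 0.58. Rplp1 and Rplp2, whose ratios had opposite signs, lie on chromosomes 9 and 7. Rpl22l1 was an exception: it lies on chromosome 3, where the other genes had a median of -0.06. DNA was not measured, and whether copy number plays a part was not tested.

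**Figure D3:**
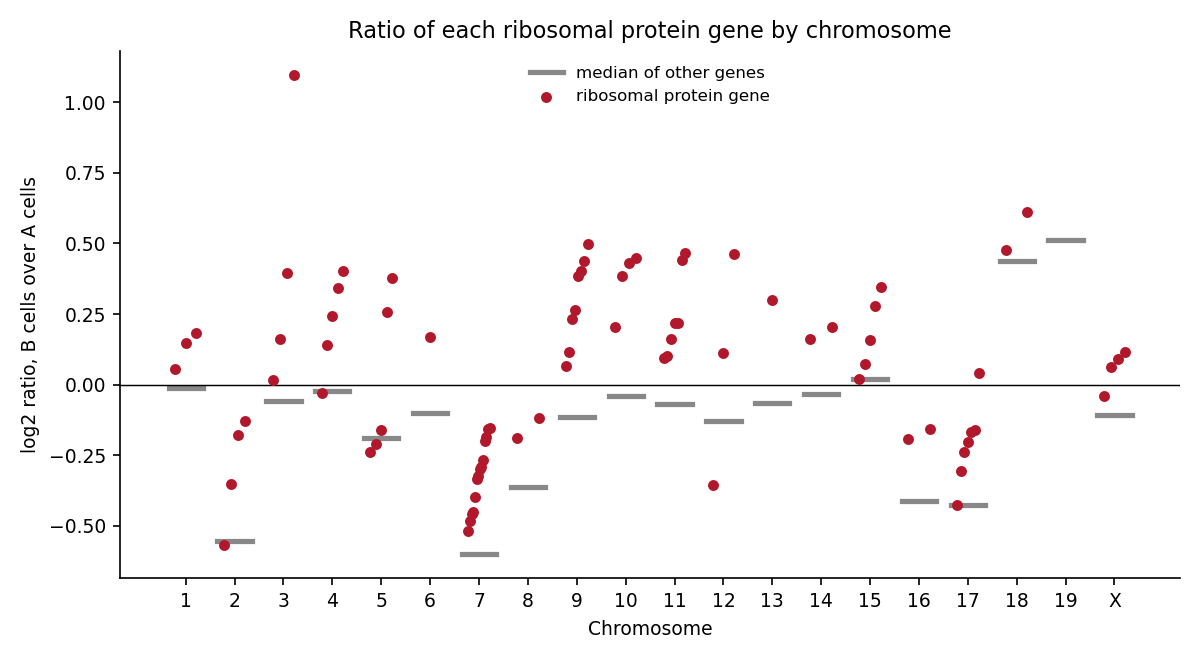
Log2 ratio of B over A cells for each ribosomal protein gene (red points), placed by chromosome, with the median of the other genes of that chromosome as a grey bar. All 14 points on chromosome 7 are below 0 and both on chromosome 18 above it; Rpl22l1 on chromosome 3 stands alone at 1.10.

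Fau and Rack1, ribosomal proteins whose symbols the pattern does not hold, were read separately. Fau, a ubiquitin-like fusion, had 1987 CPM in A and 3703 CPM in B cells (0.90), and lies on chromosome 19, which holds no member and whose other genes had a median of 0.51. Rack1 had 2007 and 2251 CPM (0.17). Of this pair, Fau lay past 1.5-fold.

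Of 17 other genes known for a TOP motif, mostly translation factors but also Npm1, Tpt1, Naca, Nap1l1, Hnrnpa1 and Vim, 2 lay past 1.5-fold toward B and 0 toward A, with a median of 0.23. The most abundant were Npm1, a nucleolar chaperone (3747 and 4476 CPM), and Eef1a1, an elongation factor (2767 and 3052 CPM), and the 2 past the threshold were Pabpc1 (736 and 1121 CPM) and Eef1g (654 and 992 CPM). Of 38 ribosome biogenesis genes, 0 lay past it toward B and 2 toward A, the nucleolar Nop56 (-0.59) and Rrs1 (-0.75), with a median of -0.04. Ncl, a nucleolar RNA-binding protein, had 2694 and 2918 CPM, and Nop58 483 and 503 CPM. Of 14 regulators with enough UMIs, of 15 listed, Rps6kb2 (0.69) was past it toward B and Tsc1 (-0.86) toward A. Eif4e had 216 and 233 CPM, Eif4ebp1 186 and 172 CPM and Myc 74.0 and 77.0 CPM. Of 78 mitochondrial ribosome genes, 4 lay past 1.5-fold toward B and 9 toward A (median -0.13), with Mrpl12 (318 and 313 CPM) and Mrpl20 (250 and 314 CPM) highest by UMIs over all cells. Mrps6 had the widest ratio of that list, with 414 CPM in A and 152 CPM in B cells (-1.45). The 12.1% and 22% of all features past 1.5-fold are the background for each of these counts.

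Members were also compared between states within a group. In A cells, those with S100g, Epcam and Tm4sf20 UMIs had a ribosomal protein share of 17.7% (1142 cells, median 3.55% mitochondrial UMIs), and those with Tnc, Acta2 and Ptchd4 UMIs 19.6% (2478 cells, 3.10%). Every member lay between -0.27 (Rpl4) and 0.07 (Rps21) in that comparison, with 0 past 1.5-fold beside 9.79% of 7660 features. After thinning, A cells had a share of 19.0% in those with the most S phase UMIs, 18.9% in those with the most mitosis UMIs and 17.3% in those low in both, which were also shallow (median 3983 UMIs, 3.63% mitochondrial). The same 3 classes of B cells had 19.6, 19.8 and 19.3%. No member lay past 1.5-fold in any of 11 comparisons within A or within B cells, by marker state, cell cycle lists, depth or mitochondrial share. Of all features in these comparisons, 0.779% (mitochondrial share in B cells) to 16.3% (S phase in A cells) were past it, so where that share is low a count of 0 members is close to the background. In the cells thinned to 3000 UMIs, mean ribosomal protein UMIs were 579 with an SD of 83.5 in A cells and 601 with an SD of 68.6 in B cells, where counting alone gives 21.6 and 21.9. The shares of the small and of the large subunit genes were correlated over cells (r = 0.81 over 7406 A cells and 0.70 over 8827 B cells, with a shared total and capture).

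The spread of single members among cells was set against counting noise. The variance over the mean, which is 1 for counting alone, had a median of 1.20 in A and 1.18 in B cells over the 83 genes. It was above 1.5 for 2 members in A cells, led by Rpl13 (1.68) and Rps2 (1.67), and for 4 in B cells, led by Rplp0 (2.08) and Rpl21 (2.00). Of other genes with a mean of at least 1 UMI, 50 of 341 in A and 33 of 348 in B cells were above 1.5. Their median was 1.11 in both groups. That minimum was not set for the members, and the sets were not matched for abundance, so their medians are not a like comparison. Rpl22l1, the gene that differed most between the groups, had 1.14 and 1.11, close to counting alone at this depth.

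Rplp0 and Rpl21 are 2 of the 5 members on chromosome 5, beside Rpl5, Rpl6 and Rpl9. Rpl5 binds the 5S RNA and, when free, the p53 inhibitor MDM2. These 5 were followed up after their values were seen. Between A and B cells they lay within 1.5-fold: Rpl5 had 1887 and 1631 CPM, Rpl6 3491 and 3125, Rpl9 2026 and 1717, Rpl21 3608 and 4682, with log2 ratios of -0.24 to 0.38. Inside B cells they varied together. Each cell's chromosome 5 members were taken as a share of its ribosomal protein UMIs, in cells with at least 500 of these. The variance of that share was 7.73 times that from counting in 8848 B cells and 1.89 times in 7370 A cells. For members of the other 16 chromosomes with at least 2 it was 1.21 to 2.18 in B and 1.11 to 2.01 in A cells.

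The median share was 7.07% in B cells, with 90% of cells between 4.25 and 11.3%, and 7.30% in A cells, between 5.42 and 9.18%. B cells had their main peak at 6 to 7%, a shoulder from 8 to 9.5% and a small rise at 3 to 4.5%. Of B cells 8.51% (7.94 to 9.11%) were under 5% and 35.5% (34.5 to 36.5%) at 8% or more. Of A cells 2.63% (2.28 to 3.02%) and 24.3% (23.3 to 25.3%) were.

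**Figure D4:**
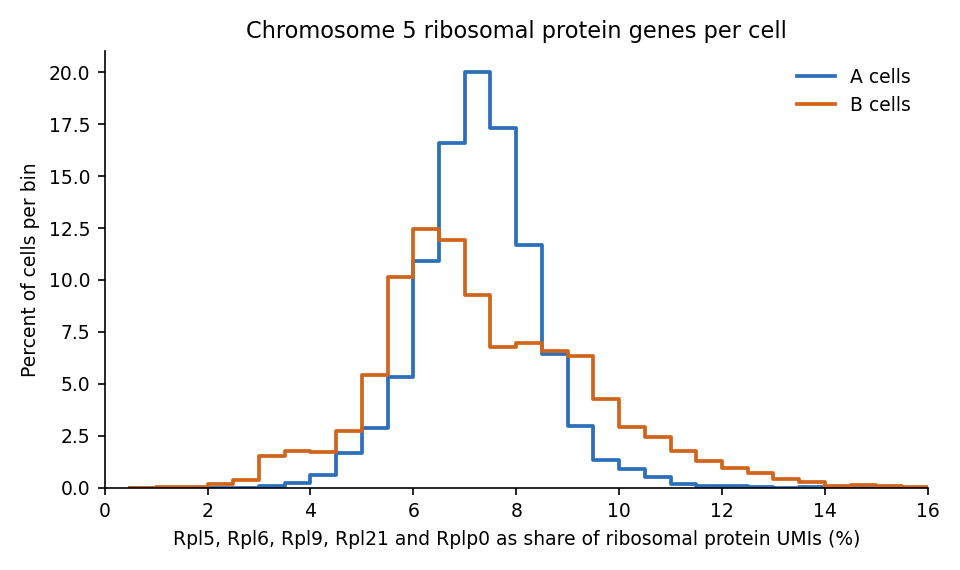
UMIs of Rpl5, Rpl6, Rpl9, Rpl21 and Rplp0 as a percent of all ribosomal protein UMIs of a cell (x axis, bins of 0.5), against the percent of A (blue) or B (orange) cells. A cells form 1 peak at 7 to 7.5%; B cells spread wider, with a shoulder above 8% and a small rise below 4.5%.

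B cells were then sorted by the share of Rpl5, Rpl6 and Rpl9 alone, and the highest 20% and lowest 20% of cells (1770 each) were compared. Rplp0 and Rpl21 had prompted the comparison, so their values are a description. The genes of chromosome 5 outside the family did not enter the sort. Rplp0 had 5083 CPM in the highest and 2730 CPM in the lowest cells, a log2 ratio of 0.90 (0.88 to 0.92), and Rpl21 had 6072 and 3621 CPM (0.75, 0.73 to 0.76). The 78 members on other chromosomes lay between -0.24 and 0.11. The 485 other genes of chromosome 5 had a median of 0.94, and 481 of them were above 0. The medians of the 19 other chromosomes were -0.06 to 0.00173. In gene order along chromosome 5, cut into 12 blocks, the first 9 blocks had medians of 0.92 to 1.08 and the last 3 had 0.70, 0.69 and 0.64. The median depth was 5308 UMIs in the highest and 5439 in the lowest cells, and the median mitochondrial share 1.86 and 1.94%. In A cells the same sort gave 0.17 for Rplp0, 0.22 for Rpl21 and 0.22 for 459 other genes of chromosome 5. Without cells marked as doublets the B value was 0.96.

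The same sort was made for the members of each chromosome with at least 2. In B cells chromosome 5 had the highest median of its own other genes, 0.98, followed by chromosome 14 with 0.40 and chromosome 18 with 0.37. In A cells it was chromosome 2 with 0.31 and chromosome 5 with 0.27. For chromosome 3 in B cells, its own other genes had 0.27 and the highest median of another chromosome was 0.25.

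**Figure D5:**
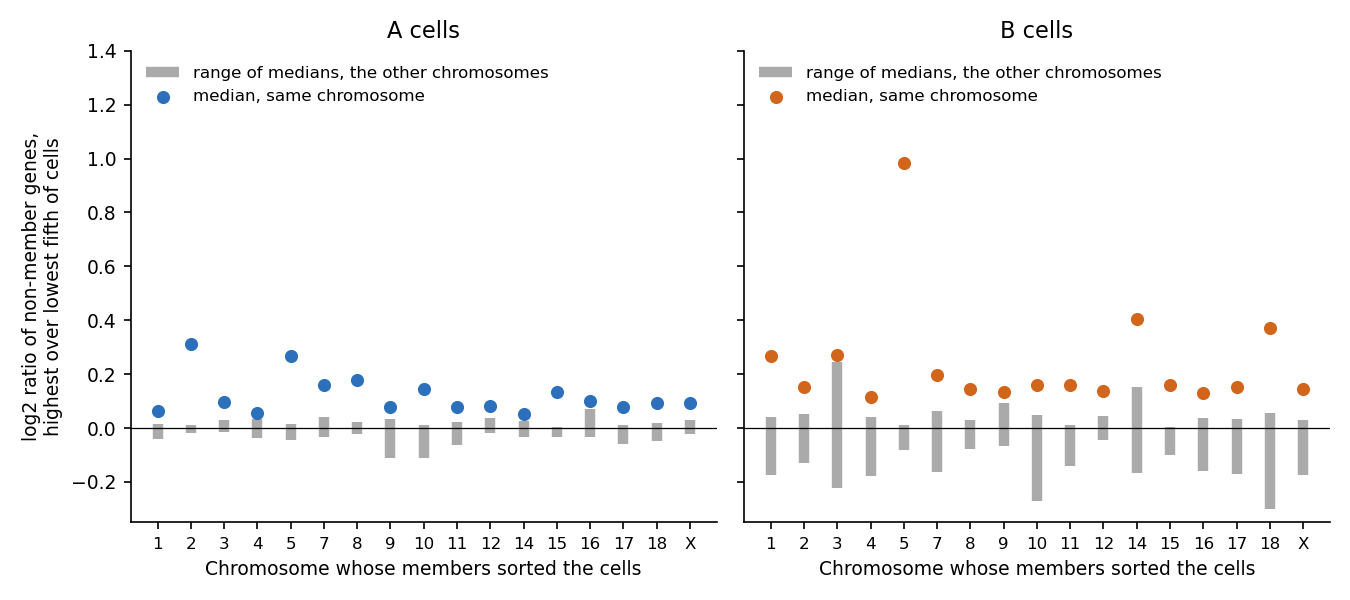
Cells sorted by the share of 1 chromosome's ribosomal protein genes: median log2 ratio, highest over lowest 20% of cells, of the non-member genes on that chromosome (points) and the range of medians of the other chromosomes (grey bars), for A cells (left) and B cells (right). Chromosome 5 in B cells, at 0.98, is far above the other points, the highest of which is 0.40.

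The share of chromosome 5 members differed between states of both groups. Among A cells, 0.599% (0.22 to 1.30%) of 1002 with S100g, Epcam and Tm4sf20 UMIs were under 5%, and 4.30% (3.52 to 5.19%) of 2397 with Tnc, Acta2 and Ptchd4 UMIs. Among 532 B cells with UMIs of Krt14 and Sprr1a, genes of keratinised epithelium, 25.9% (22.3 to 29.9%) were under 5%. Among 4688 with Areg, Btc and Cftr UMIs, 3.67% (3.15 to 4.25%) were. Areg and Btc, which encode EGF receptor ligands, lie on chromosome 5 themselves. Krt14 and Sprr1a lie on chromosomes 11 and 3, but each class was also required to be low in the other's markers, so both classes are tied to chromosome 5. Between the sorted B cells, Krt14 had 31.9 CPM in the highest and 98.4 in the lowest, Sprr1a 90.6 and 241, Areg 566 and 303, and Btc 60.9 and 20.6. In A cells, where the other genes of chromosome 5 differed less, the same sort gave 14.1 and 35.4 for Sprr1a, 2.16 and 3.19 for Krt14, 61.7 and 50.8 for Areg, and 21.0 and 11.7 for Btc. Cdkn1a had 20.2 and 35.9 CPM in the sorted B cells and 2.56 and 4.25 in the sorted A cells. The A values of Cdkn1a and Krt14 rest on few UMIs, and no counting intervals were computed for them. Comparing the Areg, Btc and Cftr cells with the Krt14 and Sprr1a cells, the 5 members had log2 ratios of 0.39 (Rplp0) to 0.58 (Rpl5), and none of the other 78 was above 0.27. Of B cells with at least 2 UMIs of Cdkn1a, the p53 target that arrests the cell cycle, 24.4% of 164 (18.03 to 31.7%) were under 5%, against 7.85% (7.26 to 8.46%) of 7813 with none. In the cells with at least 2 UMIs of Cdkn1a, Rps27l had a log2 ratio of 0.04 (-0.08 to 0.17) over those with none. The former were deeper, with a median of 6500 against 5409.5 UMIs. The DNA of these cells was not measured, and whether gains or losses of chromosome 5 play a part was not tested.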

How the data were processed

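One library of 10x 3′ v4 single-cell RNA was analysed. The authors deposited raw UMI counts per gene and barcode, written by Cell Ranger 8.0.1 per the file headers, on GRCm39 per the submitters' processing notes. The annotation and the counting of reads that match several genes are not given in the sources used here. The members, lists and comparisons were chosen with earlier results of these data known.

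Barcodes under 2000 UMIs, under 1000 genes or over 15% mitochondrial UMIs were dropped, which left 21361 of 22178. Counts were summed over A or B cells and scaled to CPM, and the log2 ratio is B over A without pseudocount. Scrublet (scanpy 1.11.5, expected rate 0.08) marked 778 cells (3.64%), which were kept, and removed in an alternative. Thinning to 3000 UMIs left out 410 A and 109 B cells. State classes needed at least 2 UMIs of 1 marker set and 3 times the other. Cell cycle classes were cells at or above the 90th percentile of a list of 20 genes, or at or below the 10th percentile of both lists summed. With tied counts these classes were larger than 10%. The S phase class held 927 of 7406 A cells and 1231 of 8827 B cells. Features in comparisons within a group had at least 250 UMIs. Chromosomes came from GENCODE M21 (GRCm38) by Ensembl identifier (all 83 members and 32012 features matched, 1684 did not).

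Genes were named by rule: the 5 members with the most UMIs, the 5 highest and 5 lowest ratios, paralog-like copies with partners, the P stalk, Rps19bp1, and the 2 most abundant genes of other lists. A few genes picked in this way are not reported here. Other genes, those on chromosome 5 among them, were named after their values were seen. With 1 library no test was made. On simulated sums, 100% of 200 genes changed 2-fold among 8059 were past 1.5-fold, and 0% of the unchanged. Alternatives were other cell filters, a stricter group rule, doublets removed, thinning, totals without mitochondrial and Malat1 or without member UMIs, other folds and a lower member minimum. Centring on all features was added after seeing the data. Tools were numpy 2.4.6, scipy 1.17.1 and pandas 2.3.3.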

Additional observations from a re-analysis of the deposited data

Results flagged for a closer look

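The cells that were neither A nor B cells by the marker rule enter no comparison of the report, yet they had a ribosomal protein share of 20.2% of UMIs (20.18 to 20.21%, 4609 cells, median cell 20.3%). The share in A cells was 19.4% and in B cells 20.04%. These cells were shallower, with a median of 4325 UMIs, and hold 424 of the 778 cells that Scrublet marked as doublets.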

How the results depend on the processing

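No paired analysis was possible because there is 1 library and no replicate. The median log2 ratio of the members (0.09) became 0.0513 with the strict cell filter (at least 5000 UMIs and 2000 genes, at most 10% mitochondrial), 0.0716 without mitochondrial and Malat1 UMIs and 0.25 when centred on all features. The count of members past 1.5-fold (2) became 1 with the strict filter, where Rps14 had a log2 ratio of 0.56, and 10 when centred. It was 29 at the lower fold tried (18 toward B, 11 toward A) and 1 at 2-fold. Without mitochondrial and Malat1 UMIs it was 3, 1 of them toward A. The share in A cells (19.4%) became 19.7% with the strict filter, 19.3% with the loose one, 19.1% with the strict group rule, 19.3% thinned and 20.2% without mitochondrial and Malat1 UMIs. The share in B cells (20.04%) became 20.01%, 19.9% and 20.6% under the strict filter, the strict group rule and without mitochondrial and Malat1 UMIs. The median of other chromosome 5 genes in sorted B cells (0.94) became 0.96 without marked doublets and 0.96 in cells with at least 5000 UMIs. Rps3a1 (0.02) turned to -0.0105 with the strict filter and to -0.0042 without mitochondrial and Malat1 UMIs. Of 208 values of 26 named genes under 8 settings, 111 stayed within counting error, 95 moved beyond it in the same direction and these 2 reversed. Centring, and each change of the total, moves the log2 ratio of every gene by the same amount. Those shifts, and the reversal of Rps3a1 without mitochondrial and Malat1 UMIs, are therefore arithmetic. The cause of the other shifts was not tested. Members with few UMIs, such as Rps27rt, are limited by depth.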
